A study of Mus musculus with 24 samples.

Results

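Endothelial cells line the sinusoids and larger vessels of the liver, and 38 genes that mark them were followed in mouse liver after MitoCDNB. The 38 were taken by gene symbol as markers of sinusoidal and vascular endothelium, by no cut on their values but with earlier results of these data known, and all 38 were found among the 24421 genes of the count table. All 38 also passed the filter on low counts, which left 13833 genes for testing. RNA was sequenced from the medial liver lobe of C57BL/6 mice, with no genetic change named in the labels. Mice had been given vehicle (ethanol at 0.1%) or MitoCDNB (5 mg/kg) by injection, 1 h or 4 h before the liver was taken, and the labels give no age or sex. Each treatment at each time made 1 group, 4 in all, with 6 libraries per group. MitoCDNB is a chlorodinitrobenzene joined to triphenylphosphonium, a cation that gathers in mitochondria, and it was designed to lower mitochondrial glutathione and to block thioredoxin reductase there.

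Liver sinusoidal endothelial cells differ from other endothelium in having open pores and no basement membrane, and they clear waste molecules from blood through scavenger and lectin receptors such as Stab1, Stab2, Lyve1, Mrc1, Fcgr2b and Clec4g. They answer to VEGF through Kdr, Flt1 and Flt4, make nitric oxide through Nos3, and send Wnt2, Rspo3 and Bmp2 to neighbouring hepatocytes. Junction proteins such as Pecam1 and Cdh5 are shared with vessels of every organ. The samples were pieces of whole liver, so fewer endothelial cells and less RNA of a gene per endothelial cell cannot be told apart.

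Total counts per library ran from 25132737 to 37231025. Levels below are CPM, counts per megaread of the scaled library size, differences are log2 fold changes, and a gene is called at a Benjamini-Hochberg adjusted p under 0.05 in edgeR's quasi-likelihood test over all genes tested. On the second principal component, 2 libraries of 4 h were separate from the rest (-13.7 to 23.5), namely replicate 1 of vehicle at -28.7 and replicate 2 of MitoCDNB at -37.2. At 1 h, the neuronal transcript Snap25 was present in replicates 4 to 6 of both groups (0.446 to 1.15 CPM) and at 0 in replicates 1 to 3 and in every 4 h library. For members called at 1 h, values are also given within each of these sets, and for members called at 4 h, without the 2 libraries that lay apart. Counts at an unadjusted p under 0.05 are given throughout without the share of all genes at that threshold. They do not show that a list exceeded all genes.

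The 38 genes summed to a median of 814 CPM in vehicle at 1 h (677 to 831), 850 with MitoCDNB at 1 h (759 to 925), 781 in vehicle at 4 h (719 to 824) and 759 with MitoCDNB at 4 h (725 to 888). The ranges of treated and vehicle libraries overlapped at both times. The sum of 12 marker genes of Kupffer cells and monocytes ran from 228 to 671 CPM in vehicle and from 217 to 324 CPM with MitoCDNB at 4 h, and that of 12 stellate cell markers from 181 to 286 and from 223 to 367 CPM. Of the 12 stellate cell markers, edgeR called 0 at 4 h (5 at an unadjusted p under 0.05), with a median log2 fold change of 0.28. For cholangiocytes, 8 markers summed to 20.7 to 28.9 CPM in vehicle and 24.1 to 55.7 CPM with MitoCDNB at 1 h. Of 7 tested, edgeR called Krt23 and Spp1 higher at 1 h (6 at an unadjusted p under 0.05), where 2.70% of all genes were called higher. The median log2 fold change of the 7 was 1.04. At 4 h edgeR called 0 of the 7 (2 at an unadjusted p under 0.05). No marker gene of these 3 lists was at 0 in all libraries of a group. Neutrophil markers (6 in the table) were low and did not overlap at 1 h, with 1.93 to 6.22 CPM in vehicle and 7.14 to 11.3 CPM with MitoCDNB. Of 4 tested, edgeR called 0 (3 at an unadjusted p under 0.05, 2 called by DESeq2 and 3 by limma-voom), and S100a8 and S100a9 had a lower effect at 4 h than at 1 h by the interaction test. Erythroid markers summed to 469 to 1201 CPM in vehicle and 619 to 1153 CPM with MitoCDNB at 1 h. The part of these cells in the results at 1 h or 4 h was not tested.

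**Figure D1:**
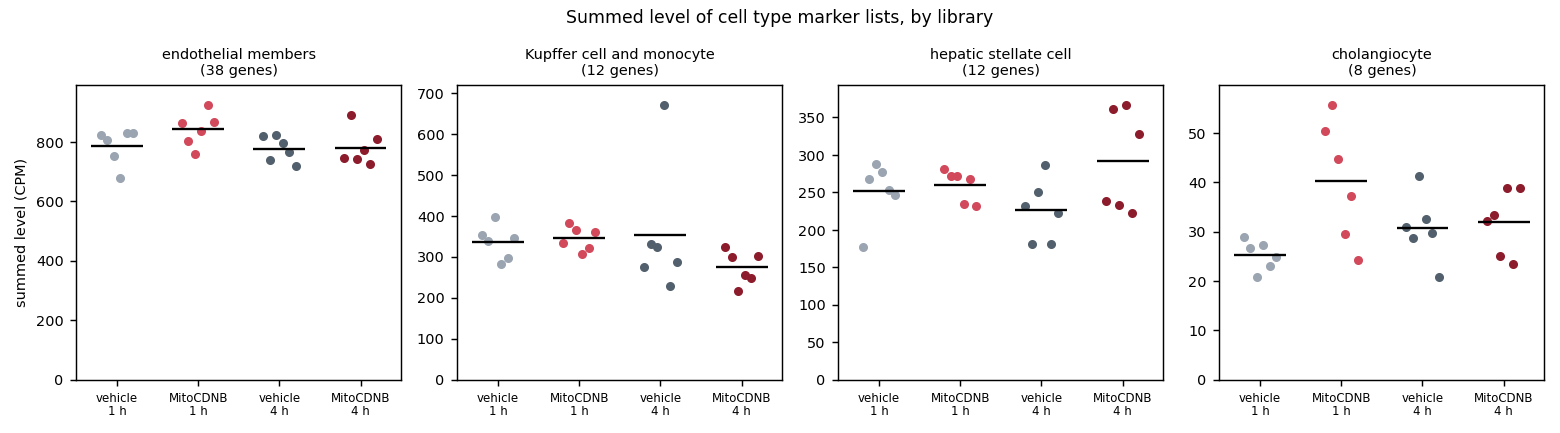
Summed CPM of 4 marker lists (y axis) by group (x axis). Points are libraries and lines are means of 6. The endothelial sum lay between 677 and 925 CPM in every library, and 1 vehicle library of 4 h stood at 671 CPM for Kupffer cell and monocyte genes.

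Levels were compared between genes only per kilobase of exon. Over the 24 libraries the water channel Aqp1 was the most abundant (29.4 ± 4.62 CPM per kb, mean ± SD), followed by the diaphragm protein Plvap (19.2 ± 3.82), the lectin Clec4g (15.9 ± 2.55), the TGF-beta co-receptor Eng (13.03 ± 0.963) and the sinusoidal gene Oit3 (7.83 ± 0.972). Sinusoidal receptors lay close together below these, with Lyve1 at 5.47, Stab2 at 5.41, Stab1 at 5.26 and Mrc1 at 5.11 CPM per kb, values that differ by less than the SD of each. Aqp1 is also made by bile duct cells and Mrc1 by macrophages. The lowest 4 of the 38 follow. Vwf, the clotting protein of large vessels, stood at 0.386 CPM per kb, the arterial ligand Efnb2 at 0.382, the sialomucin Emcn at 0.258 and the Notch target Hey1 at 0.0900, with as few as 2 reads of Hey1 in a library. Every defining marker of the sinusoidal lining was detected in all 24 libraries.

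MitoCDNB at 4 h was tested for its effect on these genes against vehicle at the same time. Of the 38 genes, 7 were called (18.4%), 2 higher and 5 lower, where 0.824% of all genes tested were called (0.455% higher and 0.369% lower). Clec4g, Mrc1, Ehd3, Oit3 and Kdr fell, each by less than 0.5 on the log2 scale, while Lyve1 and Nos3 rose by more than 1. The median log2 fold change over the 38 genes was 0.04 beside -0.0044 over all genes tested, with 21 values above 0 and 17 below. The groups did not overlap for 5 of the 38 genes, Mrc1, Clec4g, Oit3, Ehd3 and Tie1, and for 0.896% of all genes tested. In a fit of the 4 h libraries alone, where 18 genes were called in all, Ehd3 was the 1 member called, and Clec4g (adjusted p = 0.0546), Mrc1 (0.0545) and Nos3 (0.132) were among those that lost the call. Without both libraries that lay apart, Nos3, Ehd3, Clec4g, Mrc1 and Oit3 were still called, with log2 values of 0.97, -0.45, -0.43, -0.43 and -0.33, and Kdr (-0.32) and Lyve1 (1.18, adjusted p = 0.0772) were not. Of the 12 genes with sinusoidal roles, 4 fell, Lyve1 rose and 7 were not called.

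Clec4g codes for LSECtin, a C-type lectin of the sinusoidal surface, on chromosome 8 (3707064 to 3720651, GRCm38). Its lowest, median and highest values were 33.5, 42.7 and 49.3 CPM in vehicle and 26.2, 31.5 and 33.0 CPM with MitoCDNB at 4 h. Every treated library lay below every vehicle library. Clec4g fell by 0.48 on the log2 scale (SE 0.0829, edgeR adjusted p = 0.00515), a level 0.717 times that of vehicle. It passed in all 12 fits that left out 1 library. At 1 h the values were 37.6, 43.6 and 46.9 CPM in vehicle and 37.8, 39.2 and 45.3 CPM with MitoCDNB, and the groups overlapped (log2 -0.06, 95% interval -0.22 to 0.10).

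Mrc1, the macrophage mannose receptor, which sinusoidal endothelium also carries, lies on chromosome 2 (14229392 to 14332057). It stood at 29.0, 34.0 and 37.6 CPM in vehicle and at 21.4, 25.0 and 27.0 CPM with MitoCDNB at 4 h. The 2 groups did not overlap. Mrc1 fell by 0.43 (SE 0.0867, edgeR adjusted p = 0.0142) and passed in all 12 single omissions. Among the 12 Kupffer cell and monocyte markers, edgeR called 0 at 4 h (5 at an unadjusted p under 0.05, 0 called by DESeq2 and 0 by limma-voom), with a median log2 fold change of -0.38. The part of macrophages in the change of Mrc1 was not tested.

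Ehd3, a membrane-trafficking ATPase that marks sinusoidal endothelium in liver, lies on chromosome 17 (73804134 to 73832094). Values were 30.1, 37.1 and 38.3 CPM in vehicle and 24.1, 27.3 and 29.1 CPM with MitoCDNB at 4 h, with no overlap. Ehd3 fell by 0.44 (SE 0.0769, edgeR adjusted p = 0.00515). Its call held in all 10 other fits and all 12 single omissions. Ehd3 was also the single member called between the vehicle groups, lower at 4 h than at 1 h by 0.35 on the log2 scale (edgeR adjusted p = 0.00751), where 5.44% of all genes were called. At 1 h, vehicle libraries held 41.7, 45.8 and 51.5 CPM and MitoCDNB libraries 35.0, 41.5 and 49.6 CPM (log2 -0.12, adjusted p = 0.443), so the lowest levels were those of MitoCDNB at 4 h.

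Kdr, the main signalling receptor for VEGF, lies on chromosome 5 (75932827 to 75978458). It ranged over 32.3, 38.1 and 40.3 CPM in vehicle and 22.9, 27.4 and 32.7 CPM with MitoCDNB at 4 h. All 6 treated libraries lay below the vehicle mean, but the highest of them exceeded the lowest vehicle library. Kdr fell by 0.39 (SE 0.0923, edgeR adjusted p = 0.0435). MitoCDNB replicate 2 was the lowest library at 22.9 CPM, and without it the value was -0.34 (adjusted p = 0.0951). The call also ended when MitoCDNB replicate 3, 4 or 5 or vehicle replicate 3, 4 or 5 was left out, and it held in 5 of 12 omissions.

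Oit3, a secreted protein gene enriched in sinusoidal endothelium, lies on chromosome 10 (59422958 to 59441778). It stood at 21.7, 22.1 and 24.3 CPM in vehicle and at 16.3, 17.8 and 21.4 CPM with MitoCDNB at 4 h. The groups did not overlap, and the fall of 0.30 (SE 0.0742) was close to the threshold (edgeR adjusted p = 0.0478). It held in 2 of 12 single omissions, those of vehicle replicate 1 and MitoCDNB replicate 6, and its adjusted p reached 0.101 without MitoCDNB replicate 5.

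Of the 5 genes called lower at 4 h, Oit3 has no promoter in the RefSeq table used. For Clec4g, Mrc1, Ehd3 and Kdr, the RefSeq promoters are shown (GRCm38.p6, 250 bases before the start site in that table to 50 after it). Matches to 5 motifs were searched on both strands, and a shared regulator was not tested. The motifs were AGATAA for GATA factors, AGGAAG for ETS factors, AACAAT for SOX factors, CCACCC for KLF factors and TAAACA for forkhead factors, classes that include known regulators of endothelial genes. Capitals mark the matches. Each sequence is on the strand of its gene. The window of Ehd3 lies inside the gene span given above, because the GENCODE span also takes in a transcript that starts further upstream.
Clec4g, chr8:3720602-3720901, minus strand: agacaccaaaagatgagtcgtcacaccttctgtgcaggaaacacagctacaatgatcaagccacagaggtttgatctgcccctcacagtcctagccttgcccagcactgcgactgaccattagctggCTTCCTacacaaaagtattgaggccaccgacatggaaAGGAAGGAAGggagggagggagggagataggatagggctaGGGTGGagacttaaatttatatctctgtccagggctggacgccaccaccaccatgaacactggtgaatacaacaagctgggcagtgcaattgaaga
Mrc1, chr2:14229164-14229463, plus strand: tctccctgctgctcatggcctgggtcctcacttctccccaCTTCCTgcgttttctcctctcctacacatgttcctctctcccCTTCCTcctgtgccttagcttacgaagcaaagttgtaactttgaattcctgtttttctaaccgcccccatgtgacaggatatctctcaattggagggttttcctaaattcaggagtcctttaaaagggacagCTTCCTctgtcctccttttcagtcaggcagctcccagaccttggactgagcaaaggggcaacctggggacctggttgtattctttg
Ehd3, chr17:73804591-73804890, plus strand: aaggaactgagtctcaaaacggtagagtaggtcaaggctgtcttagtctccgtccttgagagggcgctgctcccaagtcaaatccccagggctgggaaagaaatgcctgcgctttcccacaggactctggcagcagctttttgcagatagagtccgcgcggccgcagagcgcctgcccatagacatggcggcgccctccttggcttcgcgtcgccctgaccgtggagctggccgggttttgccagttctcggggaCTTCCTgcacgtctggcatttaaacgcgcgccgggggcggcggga
Kdr, chr5:75978406-75978705, minus strand: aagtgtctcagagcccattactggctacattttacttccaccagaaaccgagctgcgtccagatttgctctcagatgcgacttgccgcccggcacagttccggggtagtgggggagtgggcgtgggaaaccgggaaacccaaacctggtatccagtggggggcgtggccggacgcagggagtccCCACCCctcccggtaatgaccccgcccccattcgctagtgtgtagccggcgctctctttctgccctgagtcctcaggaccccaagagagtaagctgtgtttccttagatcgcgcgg
The Clec4g promoter held 3 ETS matches, of which 2 overlap in 1 run, and 1 KLF match. Mrc1 held 3 ETS matches and Ehd3 held 1, both without a match to the other 4 motifs. Kdr held 1 KLF match and no ETS match. Of the 32851 mouse promoters in the RefSeq table, 35.4% held the ETS motif and 31.5% the KLF motif, and 11.2%, 10.7% and 13.4% held the GATA, SOX and forkhead motifs. Of the 25 promoters listed for 21 of the 38 genes, 14 held the ETS motif, 11 KLF, 3 SOX, 2 GATA and 2 forkhead. These are matches of 6 letters, short enough to be frequent, and no binding was measured.

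Lyve1, a hyaluronan receptor of sinusoidal and lymphatic endothelium on chromosome 7 (110850607 to 110863239), moved the other way. It stood at 6.66, 10.2 and 19.2 CPM in vehicle and at 17.4, 25.8 and 43.9 CPM with MitoCDNB at 4 h. All 6 treated libraries lay above the vehicle mean, and the highest vehicle library lay above the lowest treated one. Lyve1 rose by 1.34 (SE 0.304, edgeR adjusted p = 0.0389), a level 2.54 times that of vehicle. The call held in 5 of 12 single omissions. It was lost without MitoCDNB replicate 2 (log2 1.18, adjusted p = 0.0873), 4 or 5 and without vehicle replicate 2, 4, 5 or 6, where the adjusted p reached 0.0893. Spread within groups was large for this gene, with an SD of 0.53 on the log2 scale against 0.15 for Clec4g.

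Nos3, the endothelial nitric oxide synthase, lies on chromosome 5 (24364810 to 24384474). It stood at 2.90, 4.53 and 6.37 CPM in vehicle and at 5.70, 8.84 and 19.3 CPM with MitoCDNB at 4 h. MitoCDNB replicate 2 held 19.3 CPM, far above the next library at 10.6 CPM, and the lowest treated library lay within the vehicle range. Nos3 rose by 1.14 (SE 0.228, edgeR adjusted p = 0.0142). Without MitoCDNB replicate 2 the rise was 0.85 (adjusted p = 0.0240), and the call held in all 12 omissions. Exons of Nos3 overlap those of Atg9b on the opposite strand, and use of strand in the counting is not given in the sources used here. Gm15587, also on the opposite strand and absent from the count table, overlaps 25.2% of the exon bases of Nos3. Atg9b itself stood at 0.491 ± 0.283 CPM in vehicle and 0.392 ± 0.131 CPM with MitoCDNB at 4 h (n = 6, adjusted p = 0.722).

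**Figure D2:**
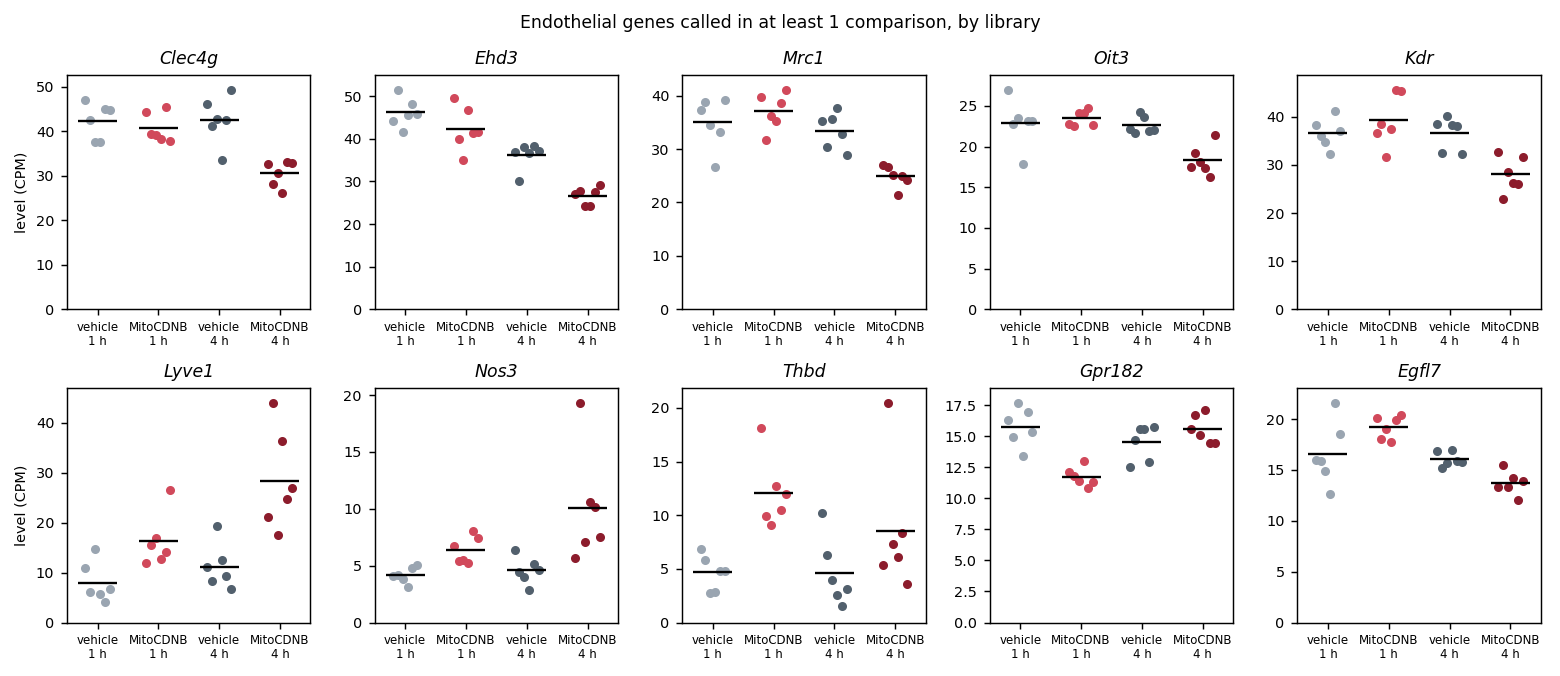
CPM (y axis, from 0) of the 10 genes called in at least 1 comparison, by group (x axis). Points are libraries and lines are means of 6. Clec4g, Ehd3, Mrc1 and Oit3 show no overlap between vehicle and MitoCDNB at 4 h, and Nos3 and Thbd each have 1 high MitoCDNB library at 4 h, at 19.3 and 20.4 CPM.

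The other sinusoidal genes at 4 h were not called. Dnase1l3, a secreted DNase, had 26.0, 31.6 and 34.0 CPM in vehicle and 20.6, 24.8 and 27.2 CPM with MitoCDNB (log2 -0.35, edgeR adjusted p = 0.0611). Coagulation factor F8, which the sinusoidal lining makes, had a log2 fold change of -0.30 (adjusted p = 0.113). DESeq2 and limma-voom called Dnase1l3 lower. For the scavenger receptors Stab1 (0.04, 95% interval -0.13 to 0.20), Stab2 (-0.15, -0.31 to 0.01) and the inhibitory Fc receptor Fcgr2b (-0.20, -0.40 to 0.00239), the interval reached across 0. Aqp1 had a value of 0.28 (adjusted p = 0.230) and the chemokine-binding receptor Gpr182 of 0.10 (0.598). Of the 6 scavenger and lectin receptors, Lyve1 was thus higher at 4 h, Clec4g and Mrc1 were lower and 3 were without a call.

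Among the other VEGF and angiopoietin receptors, values went in both directions and none was called. Flt1, a receptor that binds VEGF with high affinity and signals weakly, stood at 6.80, 8.49 and 10.03 CPM in vehicle and 8.60, 10.7 and 14.6 CPM with MitoCDNB (log2 0.38, edgeR adjusted p = 0.127). Tie1, a partner of the angiopoietin receptor, stood at 15.5, 16.6 and 16.7 CPM in vehicle and 17.8, 18.4 and 22.1 CPM with MitoCDNB. These groups did not overlap, and the difference of 0.23 missed the threshold (adjusted p = 0.118). The lymphatic VEGF receptor Flt4 was at -0.03, the angiopoietin receptor Tek at -0.15 and the phosphatase Ptprb at -0.22, with adjusted p from 0.354 to 0.957. Kdr, for the same ligand family as Flt1, was thus the single receptor of 6 that was called.

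Junction and surface genes had a median log2 fold change of 0.23 at 4 h and no call in edgeR for any of 9. At an unadjusted p under 0.05 there were 4 of 9, with no share of all genes at that threshold to set beside it. DESeq2 and limma-voom each called Cdh5 higher. Cdh5, the VE-cadherin of endothelial junctions, stood at 19.5, 23.03 and 31.7 CPM in vehicle and at 26.2, 29.2 and 37.7 CPM with MitoCDNB (log2 0.36, edgeR adjusted p = 0.0711). Vehicle replicate 4 at 31.7 CPM was the 1 vehicle library above the lowest treated one. Esam (0.23), the adhesion gene Icam2 (0.42), Plvap (0.38), the guidance receptor Robo4 (0.24), Pecam1 (0.10), Eng (0.05), Emcn (-0.19) and the secreted factor Egfl7 (-0.23) made up the rest, with adjusted p from 0.137 to 0.809.

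Neither the clotting genes nor the signals sent by endothelium were called at 4 h. Thbd, the thrombin-binding anticoagulant thrombomodulin, stood at 1.53, 3.56 and 10.2 CPM in vehicle and 3.58, 6.73 and 20.4 CPM with MitoCDNB (log2 0.89, edgeR adjusted p = 0.320). Its highest vehicle and treated libraries were vehicle replicate 1 and MitoCDNB replicate 2, the 2 that lay apart. Vwf was at 0.03 (95% interval -0.25 to 0.32). The angiocrine ligands Wnt2 (0.16, interval -0.27 to 0.60), Rspo3 (0.08, -0.18 to 0.34) and Bmp2 (-0.14, -0.42 to 0.14) had no call in edgeR, DESeq2 or limma-voom and 0 of 3 at an unadjusted p under 0.05. The Notch ligand Dll4 was at -0.53 (adjusted p = 0.205), Efnb2 at -0.47 (0.294) and Hey1 at 0.47 (0.647). Gata4, a factor needed for sinusoidal identity, stood at 14.3, 15.8 and 19.7 CPM in vehicle and 18.04, 20.2 and 24.8 CPM with MitoCDNB (log2 0.32, adjusted p = 0.129), and the endothelial ETS factor Erg was at 0.06 (adjusted p = 0.880).

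**Figure D3:**
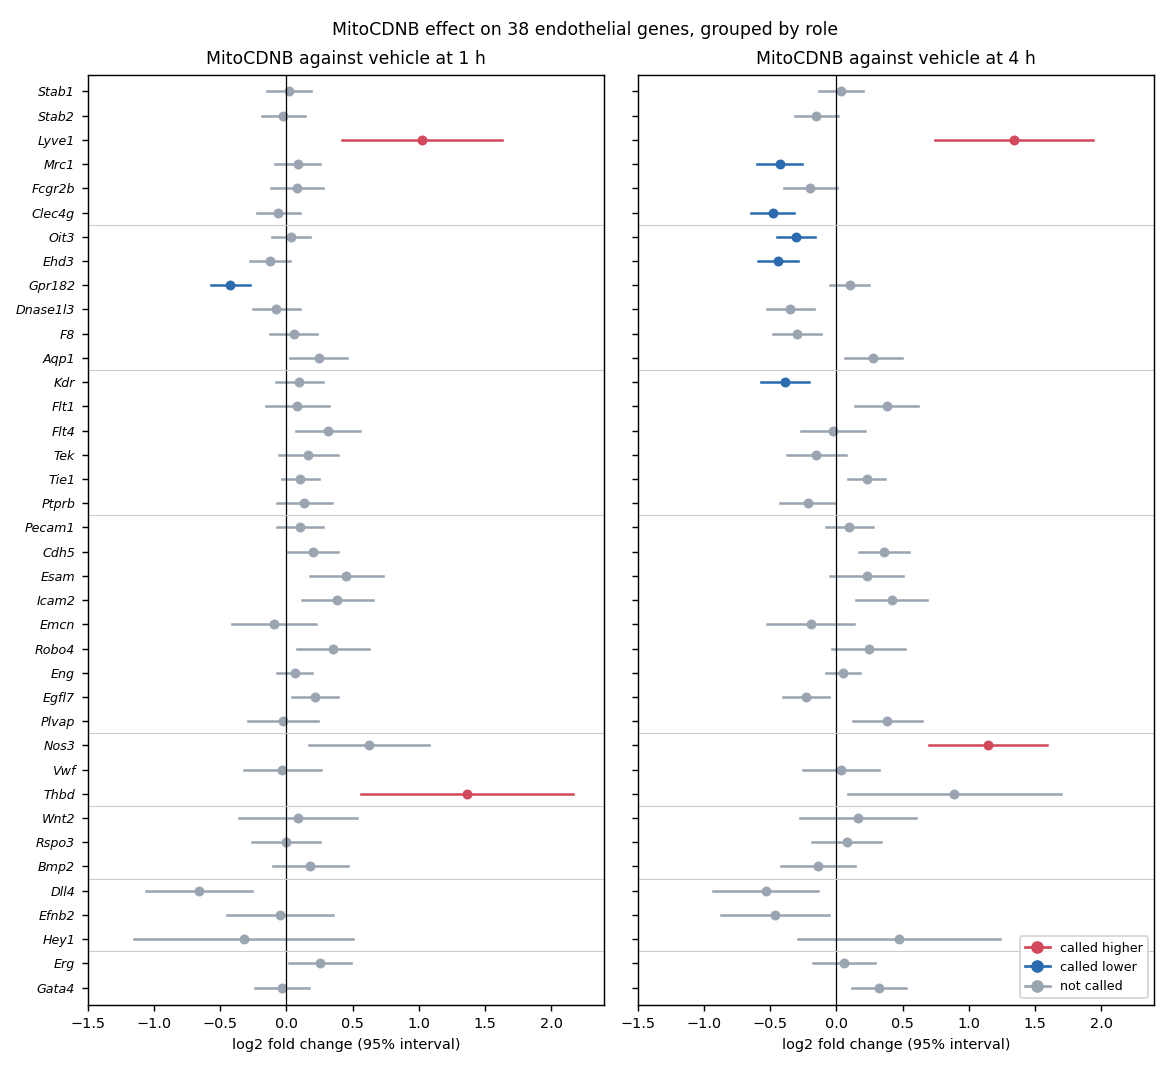
Log2 fold change of MitoCDNB against vehicle (x axis, point, with a line for the 95% interval) for the 38 genes (y axis, grouped by role) at 1 h and at 4 h. At 1 h Lyve1 and Thbd were called higher and Gpr182 lower, and at 4 h Lyve1 and Nos3 were higher and Mrc1, Clec4g, Oit3, Ehd3 and Kdr lower.

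At 1 h MitoCDNB called 3 of the 38 genes (7.89%), 2 higher and 1 lower, where 6.57% of all genes tested were called (2.70% higher and 3.87% lower), so the share among endothelial genes was near that of all genes. The 3 were Thbd and Lyve1, higher, and Gpr182, lower. The median log2 fold change was 0.08 over the 38 and 0.00254 over all genes, with 25 values above 0 and 13 below. Groups did not overlap for 5 of the 38, Gpr182, Thbd, Nos3, Icam2 and Robo4, and for 4.74% of all genes tested.

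Gpr182, on chromosome 10 (127747276 to 127751732), stood at 13.4, 15.8 and 17.7 CPM in vehicle and at 10.8, 11.6 and 13.003 CPM with MitoCDNB at 1 h. Every treated library lay below every vehicle library. Gpr182 fell by 0.42 (SE 0.0753, edgeR adjusted p = 6.18e-04), a level 0.746 times that of vehicle, and passed in all 12 omissions. The value was -0.47 in replicates 1 to 3 alone (adjusted p = 0.0275), and replicates 4 to 6 alone gave -0.38 without a call (adjusted p = 0.118). By 4 h the treated libraries held 14.4, 15.3 and 17.1 CPM beside 12.5, 15.2 and 15.8 CPM in vehicle, with overlap.

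Thbd, on chromosome 2 (148404466 to 148408188), stood at 2.76, 4.83 and 6.90 CPM in vehicle and at 9.14, 11.2 and 18.1 CPM with MitoCDNB at 1 h. The groups did not overlap, and Thbd rose by 1.36 (SE 0.408, edgeR adjusted p = 0.0470), a level 2.57 times that of vehicle. The spread behind this test is shared by all 4 groups. In the 1 h libraries alone, the adjusted p was 0.00297, and without both 4 h libraries that lay apart it was 0.00317. It held in 1 of 12 omissions, that of vehicle replicate 1, and its adjusted p reached 0.111 without MitoCDNB replicate 1, while the log2 value stayed between 1.21 and 1.51. Replicates 1 to 3 alone gave 1.26 (adjusted p = 0.484), replicates 4 to 6 alone gave 1.48 (0.343), and a term for the 2 sets gave an adjusted p of 0.0523.

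Lyve1 stood at 4.09, 6.38 and 14.6 CPM in vehicle and at 11.98, 14.8 and 26.5 CPM with MitoCDNB at 1 h. All 6 treated libraries lay above the vehicle mean of 8.004 CPM, with overlap by vehicle replicate 3. Lyve1 rose by 1.02 (SE 0.309, edgeR adjusted p = 0.0494), just inside the threshold, and kept the call in 2 of 12 omissions, those of vehicle replicates 1 and 3. Replicates 1 to 3 alone gave 0.49 (adjusted p = 0.693), and replicates 4 to 6 alone gave 1.69 (0.0505), so neither set passed by itself. In the 1 h libraries alone the adjusted p of Lyve1 was 0.0758, and with upper quartile factors it was 0.0528. Its values at 1 h and 4 h come from separate mice with separate controls, and both were above 0.

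Of the genes just outside the threshold at 1 h, Dll4, a Notch ligand of arterial and sprouting endothelium, stood at 2.70, 3.72 and 6.04 CPM in vehicle and 1.67, 2.24 and 3.79 CPM with MitoCDNB (log2 -0.66, edgeR adjusted p = 0.0512). The junction molecule Esam stood at 5.17, 6.76 and 7.84 CPM in vehicle and 7.84, 8.83 and 10.7 CPM with MitoCDNB (log2 0.45, adjusted p = 0.0526). For both, all 6 treated libraries lay on 1 side of the vehicle mean, and DESeq2 and limma-voom called Dll4 lower and Esam higher. Nos3 stood at 3.13, 4.11 and 5.07 CPM in vehicle and 5.28, 6.12 and 8.06 CPM with MitoCDNB, without overlap (log2 0.62, adjusted p = 0.128). Icam2 (0.38, adjusted p = 0.107) and Robo4 (0.35, 0.158) were also separated without a call.

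The remaining genes at 1 h were not called in edgeR. Of all 38 genes, 12 had an unadjusted p under 0.05 at 1 h. Junction and surface genes other than Esam, Icam2 and Robo4 had log2 fold changes from -0.09 (Emcn) to 0.21 (Egfl7). Erg was at 0.25, Gata4 at -0.04, Efnb2 at -0.05 and Hey1 at -0.32 (95% interval -1.15 to 0.51). For the scavenger and lectin receptors other than Lyve1, log2 fold changes ran from -0.06 (Clec4g) to 0.08 (Mrc1). Sinusoid-enriched genes other than Gpr182 ran from -0.12 (Ehd3) to 0.24 (Aqp1). The 6 VEGF and angiopoietin receptors ran from 0.08 (Flt1) to 0.31 (Flt4), with 0 called in edgeR, DESeq2 or limma-voom and 1 of 6 at an unadjusted p under 0.05. Wnt2, Rspo3 and Bmp2 lay between -0.00411 and 0.18, and Vwf at -0.03.

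The effects of MitoCDNB at 4 h and at 1 h were compared by an interaction term, which called 5 of the 38 genes (13.2%) where 4.07% of all genes were called (2.38% higher and 1.69% lower at 4 h). Mrc1, Clec4g, Kdr and Egfl7 had a lower effect at 4 h than at 1 h, and Gpr182 a higher one. Mrc1 went from 0.08 at 1 h to -0.43 at 4 h (difference -0.51, SE 0.122, edgeR adjusted p = 0.0153), and Gpr182 from -0.42 to 0.10 (difference 0.52, SE 0.106, adjusted p = 0.00409). Both passed in all 24 single omissions, but within the 1 h sets Mrc1 lost the call with replicates 1 to 3 (adjusted p = 0.211) and Gpr182 with replicates 4 to 6 (0.0938). Clec4g went from -0.06 to -0.48 (difference -0.42, adjusted p = 0.0398) and kept the call in 10 of 24 omissions. Within the 1 h sets it lost the call in both, with adjusted p of 0.217 (replicates 1 to 3) and 0.207 (replicates 4 to 6). Kdr went from 0.10 to -0.39 (difference -0.485, adjusted p = 0.0314) and kept it in 17 of 24, and it also lost the call in both sets (adjusted p = 0.341 and 0.0558). The adjusted p reached 0.0752 for Clec4g without MitoCDNB replicate 4 of 4 h and 0.0616 for Kdr without MitoCDNB replicate 6 of 1 h. Without both 4 h libraries that lay apart, the adjusted p was 0.0832 for Clec4g and 0.0614 for Kdr.

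Egfl7, called in neither treatment comparison alone, was called for the difference between them. It stood at 12.6, 15.9 and 21.6 CPM in vehicle and 17.8, 19.5 and 20.4 CPM with MitoCDNB at 1 h, and at 15.2, 15.9 and 17.01 CPM and 12.1, 13.6 and 15.5 CPM at 4 h. The effect was 0.21 at 1 h and -0.23 at 4 h (difference -0.44, SE 0.126, edgeR adjusted p = 0.0444), and the call held in 4 of 24 omissions, with an adjusted p of up to 0.0844 (without MitoCDNB replicate 5 of 4 h). With replicates 4 to 6 of 1 h alone, the adjusted p of Egfl7 was 0.317. Exons of Egfl7 overlap Agpat2 and 2 microRNA genes, and Gm20532 on the same strand, which the count table lacks (7.37% of exon bases). Agpat2 stood at 86.3 ± 10.5 and 89.3 ± 5.89 CPM in vehicle and MitoCDNB at 4 h (n = 6), more abundant than Egfl7. At 1 h it stood at 95.5 ± 6.07 and 103 ± 14.2 CPM. Its difference between the effects was -0.07 (edgeR adjusted p = 0.853). For Lyve1 (difference 0.32, 95% interval -0.52 to 1.16), Nos3 (0.52, -0.11 to 1.15) and Ehd3 (-0.32, -0.53 to -0.11, adjusted p = 0.107), the effects at 1 h and 4 h were not shown to differ.

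**Figure D4:**
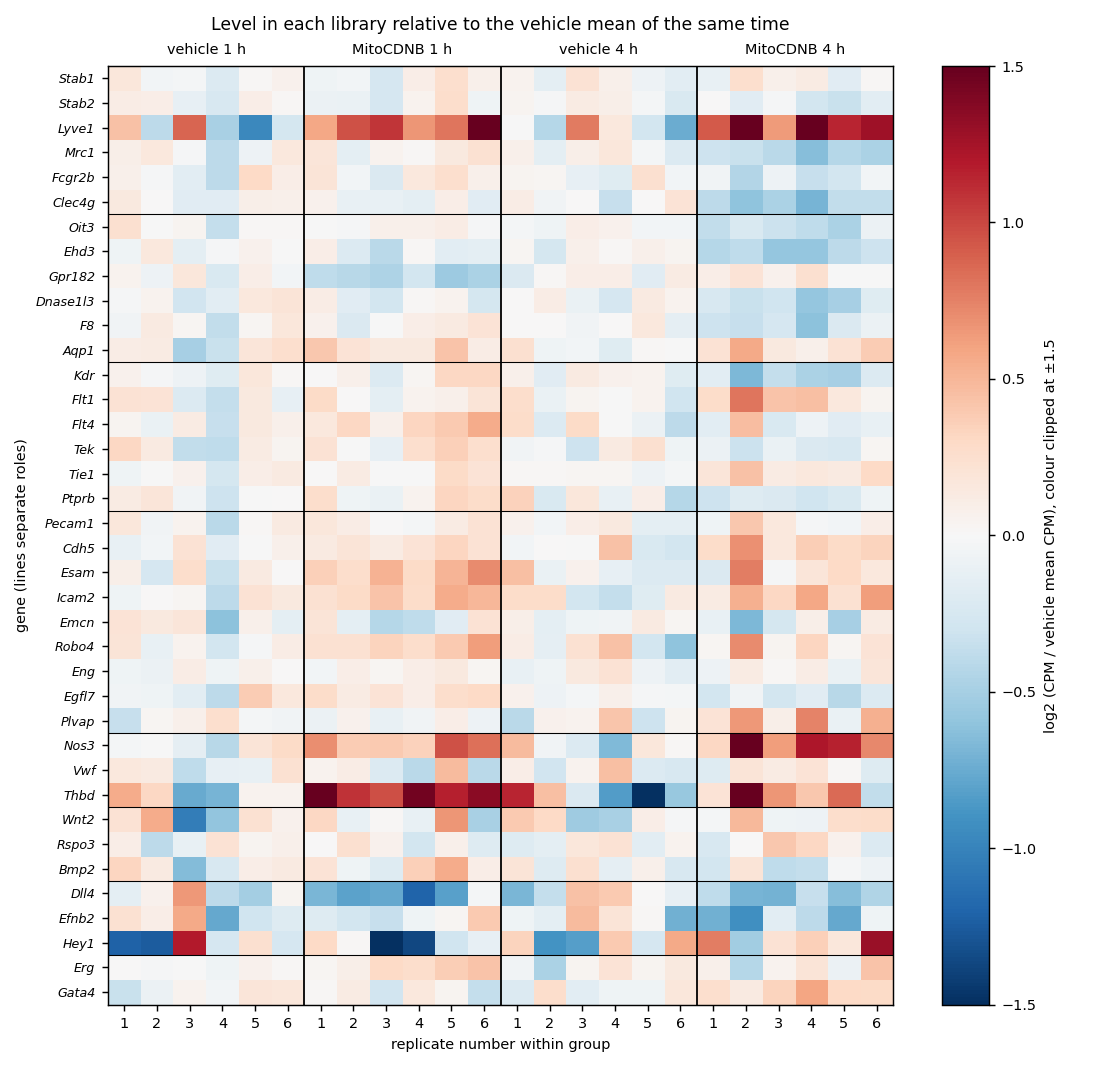
Log2 ratio of each library's CPM to the vehicle mean of the same time (colour, limited to 1.5 either way) for the 38 genes (rows, by role) in the 24 libraries (columns, by group and replicate). At 4 h the MitoCDNB columns are blue for Mrc1, Clec4g and Ehd3 and red for Lyve1 and Nos3, and MitoCDNB replicate 2 stands out in red for Flt1, Cdh5, Esam and Robo4.

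Libraries of a group differed in the level of endothelial genes as a whole. Relative to the mean of all libraries, the median of the 38 genes was lowest in vehicle replicate 4 of 1 h (log2 -0.28, with 3 of 38 genes above their mean) and highest in MitoCDNB replicate 5 of 1 h (0.25, with 33 of 38 above). Both belong to the set that held Snap25. Spread within groups also differed by gene. Eng (SD 0.11 on the log2 scale), Tie1 (0.12), Gpr182 (0.12) and Oit3 (0.13) varied least, and Thbd (0.71), Hey1 (0.59), Lyve1 (0.53), Wnt2 (0.41) and Nos3 (0.40) varied most. The fall of 0.44 in Ehd3 was thus called at 4 h, while the larger value of 0.89 for Thbd was not.

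Of 21 endothelial transcription factors outside the 38 that were tested, 4 rose and 3 fell at 1 h. Of all genes tested, 2.70% were called higher and 3.87% lower at 1 h, and 0.824% were called at 4 h. This list and those below were chosen with earlier results of these data known. Sox18, a factor of vessel development, fell from 3.55 ± 0.515 to 0.991 ± 0.204 CPM (n = 6, log2 -1.83, edgeR adjusted p = 8.05e-09). Klf2, the flow-responsive factor that is known to act on Nos3 and Thbd, rose from 8.92 ± 2.85 to 19.7 ± 4.53 CPM (log2 1.14). Its edgeR adjusted p was 0.00249, and a link of Klf2 to the levels of Nos3 and Thbd was not tested. Klf4, of the same family, went from 1.99 ± 0.850 to 6.46 ± 1.38 CPM (log2 1.69, adjusted p = 0.00252). Ets2 rose by 0.96. None of the 21 passed in edgeR at 4 h, 0 in all, with 9 under 0.05 before adjustment, 2 calls by DESeq2 and 1 by limma-voom. Klf2 then stood at 8.61 ± 2.50 CPM in vehicle and 4.58 ± 1.49 CPM with MitoCDNB, and its effect differed between the times (difference -2.05, adjusted p = 7.06e-04). Within the 1 h sets the counts were 1 higher and 1 lower in replicates 1 to 3, and 2 and 1 in replicates 4 to 6.

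Other endothelial markers, 47 tested, had 5 higher and 2 lower at 1 h and 2 higher and 0 lower at 4 h. Over all genes tested, the shares called were 6.57% at 1 h and 0.824% at 4 h. Apold1, an early response gene of endothelium, rose from 1.12 ± 0.586 to 11.1 ± 2.50 CPM at 1 h (n = 6, log2 3.30, edgeR adjusted p = 2.62e-08), and Ctla2a from 1.48 ± 0.492 to 3.49 ± 0.583 CPM (log2 1.23, adjusted p = 2.76e-05). Scarf1, a scavenger receptor, fell by 0.68, and the surface receptor Cd93 rose by 0.99. At 4 h Ctla2a rose by 1.08 and the endothelin receptor Ednrb by 0.88. Leaving out both 4 h libraries that lay apart gave 4 higher and 0 lower at 4 h, and DESeq2 gave 6 and 0. Both of these fits also called more of all genes than the main fit, so the share of 0.824% does not apply to them.

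Of 14 VEGF and angiopoietin ligands and co-receptors tested, edgeR called 0 at 1 h (3 at an unadjusted p under 0.05, 0 called by DESeq2 and 1 by limma-voom) and 1 at 4 h, the semaphorin Sema3f, which rose from 5.99 ± 0.935 to 9.10 ± 1.26 CPM (n = 6, log2 0.61, adjusted p = 0.0479). It was not called without both libraries that lay apart. For all genes tested, 6.57% were called at 1 h and 0.824% at 4 h. In the Notch pathway (14 tested), the ligand Jag1 fell from 4.19 ± 0.361 to 1.95 ± 0.387 CPM at 1 h (log2 -1.10, adjusted p = 3.37e-04), and the target Hes1 rose from 4.28 ± 1.11 to 7.95 ± 2.13 CPM at 4 h (log2 0.89, adjusted p = 0.0269).

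In the BMP pathway, in which endothelial Bmp2 acts on hepatocytes, 3 of 20 genes rose at 1 h (Id2, Hfe2 and Bambi). At 4 h 2 rose (Hfe2 and Gdf2), with 0 lower at either time. Shares of all genes tested were 2.70% higher and 3.87% lower at 1 h, and 0.455% higher and 0.369% lower at 4 h. Hfe2, the co-receptor hemojuvelin, rose from 40.8 ± 5.71 to 56.0 ± 5.26 CPM at 1 h and from 38.5 ± 5.26 to 55.3 ± 7.60 CPM at 4 h (n = 6, log2 0.46 and 0.52, edgeR adjusted p = 0.00557 and 0.0134). Of 18 Wnt and R-spondin pathway genes, the feedback target Axin2 fell from 3.71 ± 1.00 to 1.49 ± 0.401 CPM at 1 h (log2 -1.31, adjusted p = 3.11e-04), the receptor gene Fzd7 fell and Fzd6 rose, while at 4 h edgeR, DESeq2 and limma-voom called 0 (5 at an unadjusted p under 0.05 in each). Of 14 nitric oxide pathway genes beside Nos3, the arginine transporter Slc7a1 rose at 1 h (log2 1.04, adjusted p = 0.0172), and at 4 h edgeR, DESeq2 and limma-voom called 0 (5 at an unadjusted p under 0.05 in edgeR).

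Between the vehicle groups, 1 of the 38 genes was called (2.63%), Ehd3, where 5.44% of all genes were called (2.99% higher and 2.46% lower at 4 h). Of 20 BMP pathway genes tested, Id2, Id3 and Smad6 rose from 1 h to 4 h, as did Prox1 of 21 endothelial transcription factors. The liver cells that held these transcripts were not measured. Id2 went from 33.0 ± 5.71 to 70.6 ± 14.1 CPM in vehicle (n = 6, log2 1.10, edgeR adjusted p = 2.77e-04), beside 63.5 ± 12.1 CPM with MitoCDNB at 1 h. Of 14 nitric oxide pathway genes, the guanylate cyclase subunits Gucy1a3 and Gucy1b3 and the Nos3 partner Nostrin fell from 1 h to 4 h. Of 18 Wnt and R-spondin pathway genes, Fzd4, Fzd6, Fzd7 and Sp5 rose. Among 47 other endothelial markers, Calcrl fell (log2 -0.39, edgeR adjusted p = 0.0422). The VEGF and angiopoietin list and the Notch list, with 14 tested in each, had 0 called. Time after injection and any difference between the 1 h and 4 h collections cannot be told apart here, and library numbers 1 to 12 were all 4 h and 13 to 24 all 1 h.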

How the data were processed

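RNA of mouse medial liver lobe was sequenced in 24 libraries, each a mouse per the labels' protocol. The authors deposited raw read counts per gene symbol in 1 table. The submitters' processing notes name CASAVA 1.8.4, Trim Galore, HISAT2, DESeq2 and mm10. Per the labels' protocols, polyA RNA went into NEBNext Ultra libraries. No counting tool, annotation or strand setting is stated, and 6 of the 38 genes have exons that overlap another gene of the table, whose reads may be shared.

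Genes were kept by filterByExpr (minimum count 10, total 15), which left 13833 of 24421 genes and 99.9694% of counts (4653 genes had none). TMM-scaled counts of all 24 libraries were fitted in 1 model of the 4 groups by edgeR 4.0.16 (R 4.3.3, robust quasi-likelihood test), with Benjamini-Hochberg adjustment over genes tested. SE is the log2 fold change over the root of F. The 95% intervals use a normal multiplier of this SE and are slightly narrower than the test implies. For Cdh5 at 1 h, the interval of 0.00898 to 0.391 excludes 0 at an edgeR unadjusted p of 0.0507. Reads per member and library ran from 2 to 3290. Lengths, positions and overlaps are from GENCODE vM21 (GRCm38).

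The 38 genes, their roles and all lists were chosen with earlier results of these data known. Members called in a comparison are described in full, with up to 2 uncalled members of smallest p per role, other members by value, and up to 4 called genes per pathway list. Of 238 list symbols, 236 were found. Alternatives were DESeq2 1.42.0, limma-voom (limma 3.58.1), other factors and filters, only the groups compared, a replicate block and omission of each library. Fits without 2 libraries of 4 h, with a term for the 1 h sets and in each set were chosen after seeing the data. Scripts were tested on simulated data, and no libraries of a group were duplicates. In the simulation, 1.3-fold changes were called for 36% of changed genes at 1 h and 34% at 4 h. The shares were 64% and 62% for 1.5-fold changes, and 98% and 94% for 2-fold changes. The lack of a call thus does not show that a member was unchanged.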

Additional observations from a re-analysis of the deposited data

Results flagged for a closer look

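In 10 of the 152 sets of 6 values (38 genes in 4 groups, 6.58%), 1 library lay far from the other 5 by Dixon's test at the 95% level, which chance alone gives in about 1 of 20. Of these, 5 were MitoCDNB replicate 2 of 4 h, a library that lay apart on the second principal component, and in each it was the highest: Nos3 at 19.3 CPM (next 10.6), Thbd at 20.4 (next 8.36), Flt4 at 34.3 (next 23.6), Cdh5 at 37.7 (next 30.2) and Robo4 at 13.99 (next 10.6). MitoCDNB replicate 6 of 1 h was the highest for Lyve1 at 26.5 CPM (next 16.8) and for Dll4 at 3.79 CPM (next 2.403). In vehicle at 4 h, replicate 1 was the highest for Esam at 9.09 CPM (next 6.97), replicate 4 was the highest for Cdh5 at 31.7 CPM (next 23.6), and replicate 2 was the lowest for Ehd3 at 30.1 CPM (next 36.7). Replicate 4 is also the vehicle library whose Kupffer cell and monocyte genes summed to 671 CPM, and a link to its Cdh5 level was not tested.

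The effect of MitoCDNB differed between 4 h and 1 h by the interaction test for 5 genes. The difference in log2 fold change was -0.51 for Mrc1, -0.42 for Clec4g, -0.485 for Kdr, -0.44 for Egfl7 and 0.52 for Gpr182. Mice of 1 h and 4 h were separate, and library number separated the times as well.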

How the results depend on the processing

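No called member changed direction in any fit. The member counts below also depend on how many of all genes each fit called. Shares of members and of all genes were not compared between fits, so a higher member count does not show a stronger endothelial response. At 4 h the 7 called members became 9 with DESeq2 or limma-voom, 6 with upper quartile factors, 5 with no filter on low counts, 5 without both libraries that lay apart, 4 with the replicate block, 1 (Ehd3) in the 4 h libraries alone and 4 to 8 in single omissions. At 1 h the 3 became 5 with DESeq2, 6 with limma-voom, 6 in the 1 h libraries alone (Gpr182, Thbd, Nos3, Esam, Robo4 and Flt4, without Lyve1), 7 without both 4 h libraries, 1 with no filter, 1 in replicates 1 to 3 alone, 0 in replicates 4 to 6 alone, 2 with the replicate block and 1 to 3 in omissions. For the difference between the effects, the 5 became 3 with upper quartile factors, 3 with no filter, 3 without both 4 h libraries, 2 and 1 with the 1 h sets, 5 with the replicate block and 2 to 5 in omissions. Ehd3 between the vehicle groups was lost (0 members) with replicates 1 to 3 of 1 h alone and kept in all 12 omissions.

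Over all genes, 909 were called at 1 h, and 244 in replicates 1 to 3 alone and 256 in replicates 4 to 6 alone (720 to 838 in omissions). The 114 at 4 h became 343 with DESeq2, 224 with limma-voom, 18 in the 4 h libraries alone, 247 without both libraries that lay apart and 63 to 412 in omissions, the highest without vehicle replicate 1. The 563 differences became 913 with limma-voom, 150 and 275 with the 1 h sets and 439 to 696 in omissions. The 753 between the vehicle groups became 415 in those groups alone, 177 and 309 with the 1 h sets and 480 to 749 in omissions. The sets hold fewer libraries. The cause of the other shifts was not tested.

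Replicate numbers are not stated to pair mice. Correlations of same-numbered libraries ran from -0.0666 to 0.212 at 1 h and from -0.213 to 0.265 at 4 h. Most vehicle libraries correlated best with a MitoCDNB library of another number. With the replicate block at 4 h, Nos3 (log2 1.06, adjusted p = 0.0518), Lyve1 (1.36, 0.0857) and Oit3 (-0.31, 0.0839) were not called, and at 1 h Lyve1 (1.09, 0.0874) was not. A block could not be fitted for the vehicle groups, whose numbers are nested in time. Nos3, Clec4g and Mrc1 at 4 h also lost their calls in the 4 h libraries alone (adjusted p = 0.132, 0.0546 and 0.0545). Depth limits Hey1, at 2 to 22 reads per library.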
